A study of Mus musculus with 2 samples.

Results

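The 9 genes described here encode the parts of the renin-angiotensin system. They were chosen by symbol, 9 of the 55536 annotated genes of the series, with earlier results of these data known. They comprise the substrate angiotensinogen (Agt), the enzymes renin (Ren1) and angiotensin-converting enzyme (Ace), the receptors Agtr1a, Agtr1b, Agtr2 and Mas1, and the receptor partners Agtrap and Atp6ap2. Renin cuts angiotensin I from the front of angiotensinogen, and angiotensin-converting enzyme shortens it to angiotensin II. Angiotensin II acts on AT1 receptors of the zona glomerulosa, the outer layer of the adrenal cortex, where it drives aldosterone synthesis through Gq proteins and calcium. The AT2 receptor is known as a receptor of fetal and newborn tissues, and the kidney and liver are the main sources of plasma renin and angiotensinogen.

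The series holds 2 total RNA libraries from the adrenal gland of male B6CASTF1/J mice at 4 days of age, F1 hybrids of C57BL/6J and CAST/EiJ. The labels name adrenal gland tissue without a layer of the gland, and they name no treatment. Each library was made from 300 ng of RNA. The labels number the libraries as biological replicates 1 and 2 and give them different male numbers and biosamples, although both carry the same donor label and share a description that names 1 male. They were treated as different animals. The series has 1 group and no condition, so levels are given as descriptions, and the only test compares the libraries with each other.

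Gene counts came to 32231301 in replicate 1 and 30292851 in replicate 2, and a floor of 3 counts stood at 0.0931 and 0.0990 CPM, counts scaled to a common library total. Levels are in TPM, the deposited unit, which divides counts by transcript length and scales each library to a fixed total. Adrenal markers were present in both libraries. The 6 cortex markers, led by the steroid enzymes Hsd3b1 and Cyp21a1, summed to 7672 and 5917 TPM, and the 6 chromaffin markers, led by Chga and Chgb, to 2122 and 1917 TPM. Markers of liver stood apart between the libraries, and all 10 were higher in replicate 2: they summed to 232.4 TPM in replicate 1 and 6085 TPM in replicate 2. The 6 endothelial markers summed to 249.2 and 284.1 TPM, the 6 of pericytes and smooth muscle to 63.4 and 71.0 TPM, and the 6 of adipocytes to 671.1 and 823.1 TPM. None of these markers was listed at 0.

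By mean TPM in the alignment-based gene tables, 7 of the 9 genes reached 1 TPM, a level that 60.4% of the 22028 protein-coding genes reached. The order from high to low was Agtr2, Agtr1a, Agtrap, Agt, Atp6ap2, Ace, Agtr1b, Ren1 and Mas1. In both libraries Agtr2 lay above Agtr1a, Agtr1a above Agtrap, Atp6ap2 above Ace, Agtr1b above Ren1, and Ren1 above Mas1. The values of Agt in the 2 libraries spanned those of both Agtrap and Atp6ap2, and the values of Agtr1b spanned those of Ace, so those neighbours did not differ beyond their spread. In tissue of mixed cell types, fewer cells of a type and less RNA per cell cannot be told apart.

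**Figure D1:**
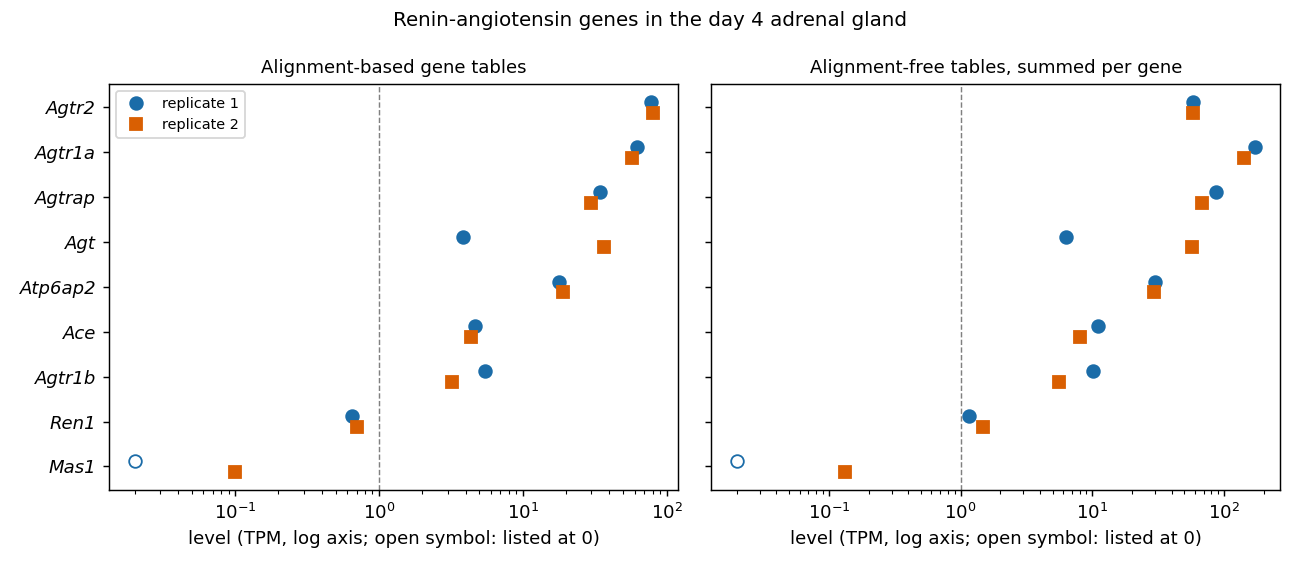
Level of each renin-angiotensin gene in replicate 1 (circles) and replicate 2 (squares), in TPM on a log axis, from the alignment-based gene tables (left) and from the alignment-free tables summed per gene (right). The dashed line marks 1 TPM, an open symbol marks a gene listed at 0 and drawn at the axis end, Agt is the gene with its symbols farthest apart among those at 1 TPM or more, and Agtr1a and Agtr2 change places between the panels.

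For the comparison of the libraries, each gene's counts were set against the library sizes in an exact two-sided binomial test with Benjamini-Hochberg adjustment over 18160 genes. A gene was called at an adjusted p under 0.05 and a difference over 2-fold. This test measures only the difference between these libraries and no spread between animals. Over all genes tested, 3.99% were called, 0.606% higher in replicate 1 and 3.39% higher in replicate 2. Of the 9 genes, 8 had enough counts to be tested and 1 was called, namely Agt, higher in replicate 2. By adjusted p alone, 33.5% of all genes and 4 of these 8 passed, with Agtr1a, Agtr1b and Agtrap higher in replicate 1 and Agt higher in replicate 2. The median log2 ratio of the 8 genes, replicate 1 over replicate 2, was 0.09, beside -5.86e-05 over all genes tested.

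Angiotensinogen, the only precursor of all angiotensin peptides, is encoded by Agt (ENSMUSG00000031980.9; mm10, chromosome 8, 124556534 to 124569706, minus strand). The start of its coding sequence is shown because it holds the hormone itself. The sequence covers chr8:124564444-124564566 of the minus strand in exon 2, from the GENCODE M21 annotation of mm10, and the 30 bases in capitals are the 10 codons of angiotensin I. The first 8 of these codons are those of angiotensin II, and 29 codons precede them.
Agt: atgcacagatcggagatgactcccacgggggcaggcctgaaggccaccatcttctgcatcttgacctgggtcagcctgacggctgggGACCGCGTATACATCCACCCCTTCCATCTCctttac

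In replicate 1 Agt stood at 3.86 TPM, against 37.0 TPM in replicate 2, from 229 and 1981 counts. The exact 95% Poisson intervals of these counts, 200.3 to 260.7 and 1895 to 2070, did not overlap, and such intervals cover counting error only. On TMM-scaled counts Agt was 8.99-fold lower in replicate 1, a log2 ratio of -3.17 that passed the exact binomial test with a p too small to be held as a number. The other tested members lay between -0.01 and 0.83 on the same log2 scale.

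The liver markers moved in the same direction as Agt, and their part in its difference was not tested. Their log2 ratios, replicate 1 over replicate 2, ran from -5.05 to -3.99 with a median of -4.77, and 10 of 10 were called higher in replicate 2. Albumin (Alb) measured 76.3 TPM in replicate 1 and 2319 TPM in replicate 2, and Ahsg, a plasma protein of liver, 30.3 and 974.5 TPM. The log2 ratio of Agt was closer to 0 than that of each of the 10 liver markers. Set against them within each library, Agt stood at 46.9 counts per 1000 Alb counts in replicate 1 and 14.8 in replicate 2. Per 1000 counts of the whole liver list it stood at 19.6 and 7.01, and the liver list made up 0.0362% and 0.933% of the gene counts. Agt over the summed liver list, as a log2 ratio of TPM, was -5.91 in replicate 1 and -7.36 in replicate 2.

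Renin, the enzyme that cuts angiotensinogen, is encoded by Ren1 (ENSMUSG00000070645.5; chromosome 1, 133350510 to 133360325, plus strand). Its level stood at 0.65 TPM (replicate 1) and 0.70 TPM (replicate 2), from 32 and 31 counts. The exact 95% Poisson intervals of these counts, 21.9 to 45.2 and 21.1 to 44.0, overlapped almost in full. On scaled counts its log2 ratio was -0.01, with an adjusted p of 1 in the exact binomial test. Ren1 was thus detected in both libraries at a level above that of 37.1% of protein-coding genes. The 10 kidney markers, led by Slc34a1 and Cdh16, summed to 12.2 TPM in replicate 1 and 4.96 TPM in replicate 2. Only 3 of the 10 reached 1 TPM, and 6 of the 7 with enough counts were called higher in replicate 1. Of those not tested, named after their values were seen, Kap had 1 count in replicate 1 and 11 in replicate 2. Umod had 12 and 9 counts, and Nphs1 had 27.1 and 3. Ren1 counts per 1000 counts of the kidney list were 21.7 in replicate 1 and 67.5 in replicate 2, and the part of kidney RNA in the Ren1 level was not tested. The level of Agt was above that of Ren1 in both libraries, by 2.57 on the log2 scale in replicate 1 and 5.72 in replicate 2.

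Angiotensin-converting enzyme removes the last residues of angiotensin I and is encoded by Ace (ENSMUSG00000020681.14; chromosome 11, 105967945 to 105989964, plus strand). Its level reached 4.67 TPM (replicate 1) and 4.35 TPM (replicate 2), from 689 and 588 counts, and the libraries lay close together. The log2 ratio of scaled counts was 0.17, with an adjusted p of 0.0988 in the exact binomial test, and 0.0394 on alignment-free counts. The antisense gene Gm11651, which overlaps Ace, had 0 counts in both libraries.

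Ace is known for a pair of start sites, the first giving the long somatic enzyme and the second, within the gene, the short enzyme of male germ cells. The 100 bases before each RefSeq start are shown because the deposited tables assign reads to a transcript beginning near each. They come from RefSeq on GRCm38.p6, plus strand, at chr11:105967848-105967947 and chr11:105975089-105975188, with no base in capitals. The GENCODE transcripts begin at slightly different bases. The last 3 bases of the first sequence lie within Ace-201, and Ace-202 begins at 105975208, downstream of the end of the second sequence.
Ace start 1: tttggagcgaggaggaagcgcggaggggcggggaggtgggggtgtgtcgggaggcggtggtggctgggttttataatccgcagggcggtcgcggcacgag
Ace start 2: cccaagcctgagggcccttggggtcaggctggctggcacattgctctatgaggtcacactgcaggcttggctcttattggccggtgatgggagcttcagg

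The full-length somatic transcript Ace-201 of 4906 bases took 82.0% of the Ace level in replicate 1 and 79.1% in replicate 2 in the alignment-based tables. The transcript beginning near the second start, Ace-202 of 2418 bases, took 10.1% and 0.920%, from 36.2 and 3.08 estimated counts. In the alignment-free tables Ace-202 took 4.49% and 5.80%, from 22.7 and 20.3 estimated counts, so the difference between the libraries was present in only 1 kind of table. Of the bases of Ace-202, 2222 also lie in exons of Ace-201 and 196 do not. A longer coding transcript, Ace-203 of 3649 bases, took 7.92% in replicate 1 and 20.0% in replicate 2 in the alignment-based tables. It took 11.4% and 25.4% in the alignment-free tables, the larger share in replicate 2 in both. The noncoding transcript Ace-204 of 695 bases was listed at 0 in the alignment-based tables and took 27.8% and 5.17% of the Ace level in the alignment-free tables.

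The AT1 receptors couple angiotensin II to Gq proteins, and rodents carry a pair of genes for them. Agtr1a (ENSMUSG00000049115.15) lies at chromosome 13, 30336441 to 30382867, plus strand, and Agtr1b (ENSMUSG00000054988.9) at chromosome 3, 20314473 to 20367177, minus strand. Their coding sequences are 1077 bases each and differ at 99 bases, an identity of 90.8%. The stretch shown, coding bases 973 to 1062, encodes part of the cytoplasmic tail and holds 20 of these differences, printed in capitals. It was chosen as the stretch of 90 bases with the most differences, so it does not stand for the coding sequences as a whole. It lies at chr13:30381926-30382015 (plus strand) and chr3:20315379-20315468 (minus strand) of mm10, from GENCODE M21.
Agtr1a: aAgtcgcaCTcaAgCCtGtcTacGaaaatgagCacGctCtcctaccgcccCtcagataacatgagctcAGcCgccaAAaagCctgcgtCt
Agtr1b: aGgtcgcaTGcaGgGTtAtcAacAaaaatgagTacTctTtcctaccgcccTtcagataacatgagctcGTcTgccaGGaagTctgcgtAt

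The longest run of identical bases in the coding sequences was 66. None of the 2100 windows of 100 bases in the longest Agtr1a transcript occurred in that of Agtr1b, and none of the 2048 windows of Agtr1b in that of Agtr1a. For windows wholly within the aligned coding sequences this followed from the longest run of 66 bases. Exact matches of 100 bases also do not measure how reads were assigned. The quantifier's own deposited SD of the count, from sharing reads between transcripts, was 0.56 in replicate 1 and 0.42 in replicate 2 for both genes. These checks used the mm10 reference, which is a C57BL/6J sequence, and the CAST/EiJ alleles of the hybrid were not examined.

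Agtr1a measured 62.8 TPM in replicate 1 and 57.3 TPM in replicate 2, from 3884 and 3141 expected counts. Both libraries placed it among the higher genes of the gland, with a mean level above that of 95.3% of protein-coding genes. Its log2 ratio between the libraries was 0.25, under 2-fold, with an adjusted p of 1.5e-11 in the exact binomial test.

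Agtr1b measured 5.42 TPM in replicate 1 and 3.24 TPM in replicate 2, from 367.4 and 198.2 expected counts. It was higher in replicate 1 by 0.83 on the log2 scale, under 2-fold, with an adjusted p of 4.75e-10 in the exact binomial test. Markers of the zona glomerulosa moved in the same direction: all 6 passed the same test by adjusted p, higher in replicate 1, with log2 ratios from 0.13 to 1.13 and a median of 0.52. They summed to 706.8 TPM in replicate 1 and 555.0 TPM in replicate 2, and the 2 highest, the potassium channel Kcnk3 and the endocytic adaptor Dab2, had log2 ratios of 0.29 and 0.13. Capsule and stroma markers, led by the collagens Col3a1 and Col1a1, summed to 861.3 TPM in replicate 1 and 1257 TPM in replicate 2, and 5 of 6 passed by adjusted p in favour of replicate 2. Other lists were also higher in replicate 1: all 6 cortex markers and all 6 chromaffin markers passed by adjusted p, with median log2 ratios of 0.24 and 0.26, and 6 of the 7 tested kidney markers were called. The part of these cell types in the Agtr1b difference was not tested.

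The level of Agtr1a exceeded that of Agtr1b in both libraries, by 3.84 ± 0.43 on the log2 scale (SD, n = 2). The separate values were 3.53 in replicate 1 and 4.14 in replicate 2. In the alignment-free tables the difference was 4.37.

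The AT2 receptor, which opposes many AT1 effects, is encoded by Agtr2 (ENSMUSG00000068122.10; chromosome X, 21484544 to 21489164, plus strand). It measured 77.4 TPM in replicate 1 and 79.9 TPM in replicate 2, from 3721 and 3552 counts. This was the highest level of the 9 genes in the alignment-based gene tables, and its mean lay above that of 96.7% of protein-coding genes. Of this level, 58.4% in replicate 1 and 57.1% in replicate 2 was in a short noncoding transcript, Agtr2-202, described below. The log2 ratio of Agtr2 between the libraries was 0.01, and -0.02 with total or spike-in counts as library size, with an adjusted p of 0.921 in the exact binomial test.

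Which of Agtr1a and Agtr2 had the higher level differed between the kinds of table, and the tables also gave different levels to short annotated transcripts of both genes. The cause of the difference was not tested. Agtr2 has a full-length transcript, Agtr2-201 of 3283 bases, and a noncoding one, Agtr2-202 of 314 bases. In the alignment-based tables Agtr2-202 held 45.2 TPM in replicate 1 and 45.6 TPM in replicate 2, more than the 32.2 and 34.3 TPM of Agtr2-201. By counts the order was the opposite, with 8.65% and 8.25% of the Agtr2 counts in Agtr2-202. Of its 314 bases, 271 also lie in exons of Agtr2-201 and 43 do not. In the alignment-free tables Agtr2-202 was listed at 0 in both libraries, and Agtr2-201 alone held 58.0 and 57.7 TPM.

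**Figure D2:**
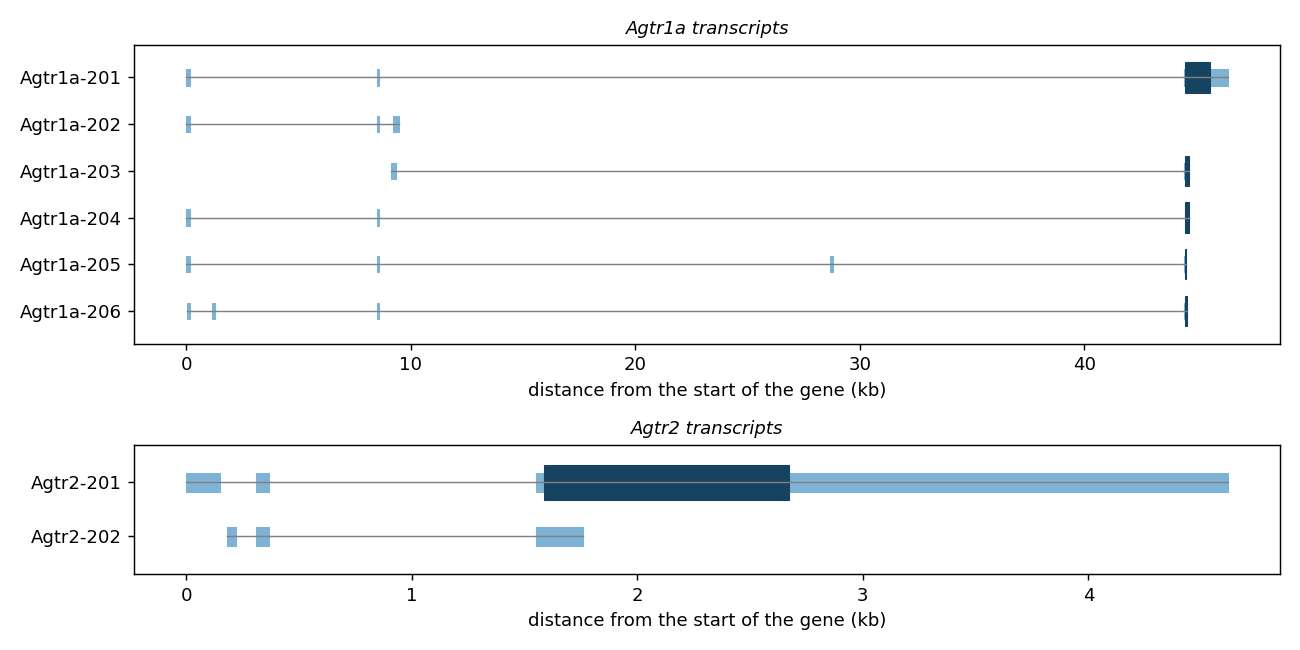
Exons of the annotated transcripts of Agtr1a (top) and Agtr2 (bottom) against the distance from the start of each gene in kilobases. Tall dark boxes are coding and low light boxes noncoding parts of exons, and the lines are introns; Agtr1a-204 lies wholly within the exons of Agtr1a-201, and 271 of the 314 bases of Agtr2-202 lie within those of Agtr2-201.

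For Agtr1a the tables differed the other way. Agtr1a-201 of 2199 bases, the transcript with the whole coding sequence, held 54.4 TPM in replicate 1 and 48.6 TPM in replicate 2 in the alignment-based tables, 86.7% and 84.8% of the gene's level. In the alignment-free tables it held 92.8 and 77.4 TPM, but only 54.4% and 55.0% of the level. Most of the remainder there was in Agtr1a-206, a partial transcript of 445 bases, with 70.1 and 56.6 TPM and only 5.25% and 5.12% of the counts. The alignment-based tables gave Agtr1a-206 0.29 TPM in replicate 1 and listed it at 0 in replicate 2. Agtr1a has 6 annotated transcripts, and 5 of them are shorter than 700 bases. A sense-intronic gene inside Agtr1a, Gm48161, named after its values were seen, also differed between the tables, at 0.73 and 0.27 TPM in the alignment-based and 123.5 and 58.6 TPM in the alignment-free tables.

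**Figure D3:**
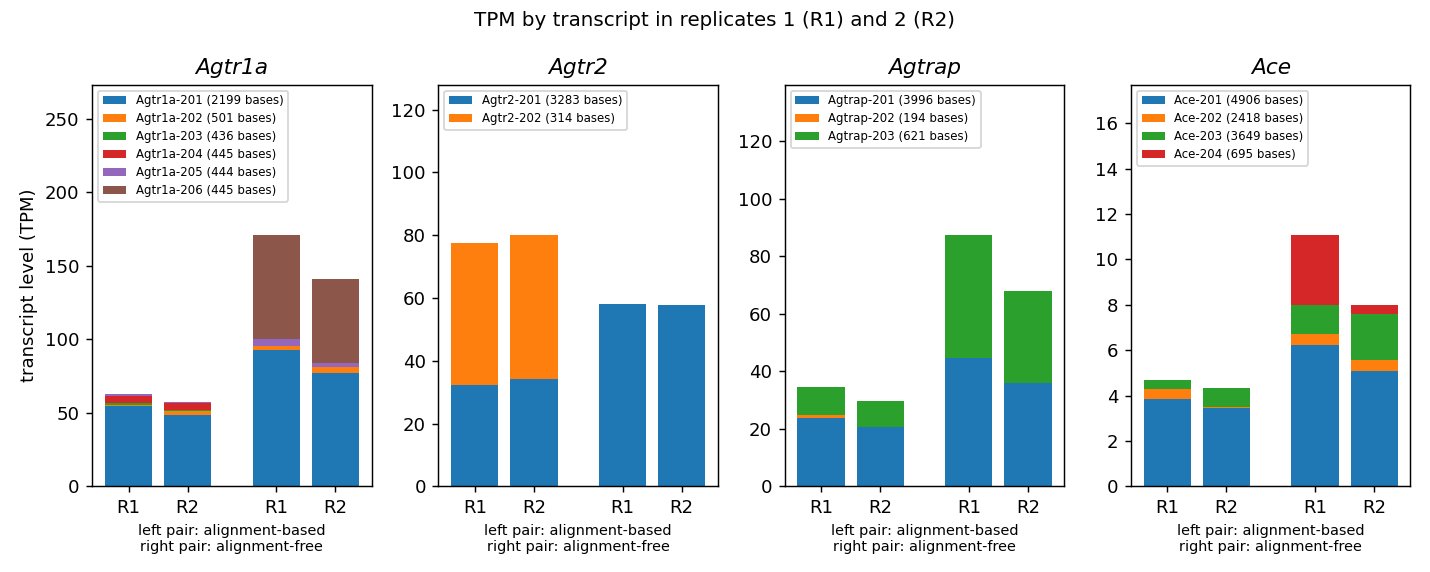
Level of each annotated transcript of Agtr1a, Agtr2, Agtrap and Ace in TPM, stacked, for replicate 1 (R1) and replicate 2 (R2), in the alignment-based tables (left pair of bars in each panel) and the alignment-free tables (right pair). Agtr2-202 makes up 58.4% and 57.1% of the Agtr2 bars at left and is absent at right, and Agtr1a-206 makes up 41.1% and 40.2% of the Agtr1a bars at right.

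The log2 ratio of the Agtr1a level over the Agtr2 level was -0.39 ± 0.13 in the alignment-based gene tables (SD, n = 2), at -0.30 in replicate 1 and -0.48 in replicate 2. In the alignment-free tables it was 1.42, at 1.56 and 1.29, so the sign was reversed in both libraries. With the longest transcript of each gene alone it was 0.63 in the alignment-based and 0.55 in the alignment-free tables, a setting chosen after seeing the data. On expected counts, without length, this log2 ratio was -0.058, at 0.062 in replicate 1 and -0.18 in replicate 2. The full-length coding transcript of Agtr1a was thus above that of Agtr2 in both kinds of table, while the gene sums took opposite orders.

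**Figure D4:**
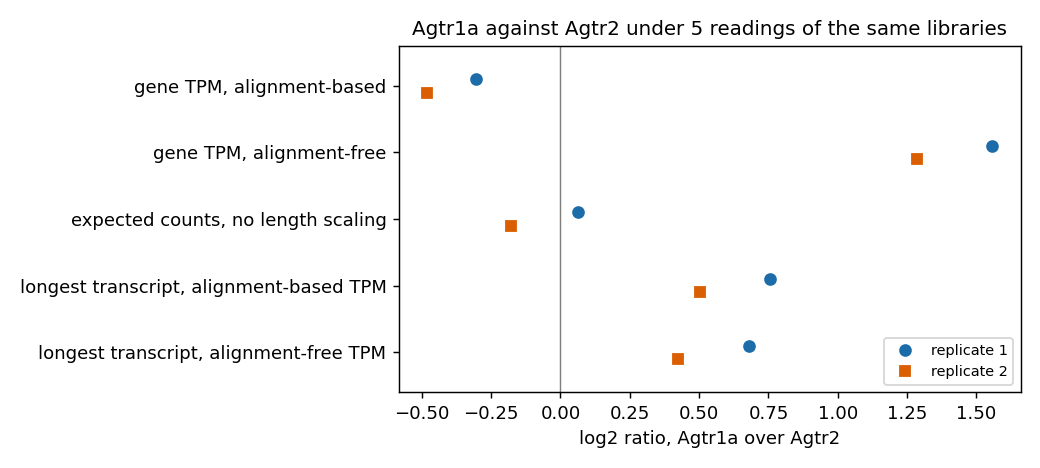
Log2 ratio of Agtr1a over Agtr2 in replicate 1 (circles) and replicate 2 (squares) for gene TPM, expected counts and TPM of the longest transcript alone. Points left of 0 mean that Agtr2 was higher: the alignment-based gene TPM lie at -0.30 and -0.48, the alignment-free gene TPM at 1.56 and 1.29, and the values of the longest transcripts right of 0 in both kinds of table.

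Across the genome the alignment-free level was usually above the alignment-based one. The ratio of their means had a median of 1.86 over 13282 protein-coding genes, with its 10 and 90 percentiles at 1.59 and 2.43. Agtr1a, at 2.59, lay above 93.4% of these genes, and Agtr2, at 0.735, above only 0.399% of them. The order of the 9 genes by alignment-free TPM was Agtr1a, Agtrap, Agtr2, Agt, Atp6ap2, Ace, Agtr1b, Ren1 and Mas1.

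Mas1 (ENSMUSG00000068037.11; chromosome 17, 12841079 to 12868143, minus strand), the receptor of angiotensin (1-7), was listed at 0 TPM in replicate 1 and 0.10 TPM in replicate 2. It had 0 counts in replicate 1, with an exact 95% Poisson interval of 0 to 3.69 counts. In replicate 2 it had 2 counts, with an interval of 0.242 to 7.22 counts. The floor of 3 counts stood at 0.0931 CPM in replicate 1. Mas1 was therefore not detectable at this depth in replicate 1 and lay under the floor of 3 counts in replicate 2, and it was not tested. The antisense gene Airn, which overlaps Mas1, had 6.74 and 6.92 TPM, and whether the 2 counts come from it was not tested.

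Agtrap encodes a membrane protein that binds the tail of the AT1 receptor and promotes its uptake into the cell (ENSMUSG00000029007.8; chromosome 4, 148077061 to 148088031, minus strand). It measured 34.5 TPM in replicate 1 and 29.7 TPM in replicate 2, from 3247 and 2535 counts, slightly higher in replicate 1. The log2 ratio was 0.30, under 2-fold, with an adjusted p of 1.15e-13 in the exact binomial test. The coding transcript Agtrap-201 of 3996 bases held 69.1% and 69.3% of the level and 94.7% and 94.4% of the counts. The noncoding transcript Agtrap-203 of 621 bases held 28.2% and 30.7% of the level in the alignment-based tables and 48.7% and 47.3% in the alignment-free tables. Summed over its transcripts, Agtrap stood at 87.2 TPM in replicate 1 and 67.9 TPM in replicate 2 in the alignment-free tables, above Agtr2 in both.

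Atp6ap2 encodes the (pro)renin receptor, which is also an accessory subunit of the vacuolar proton pump (ENSMUSG00000031007.2; chromosome X, 12587801 to 12617049, plus strand). It measured 17.8 TPM in replicate 1 and 19.1 TPM in replicate 2, from 1281 and 1215 counts. The libraries lay close together, with a log2 ratio of 0.02, or -0.01 with total or spike-in counts as library size, and an adjusted p of 0.889 in the exact binomial test. The coding transcript Atp6ap2-201 held 97.1% and 94.2% of the level, and a transcript with a retained intron, Atp6ap2-202, held 2.87% and 5.76%.

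Agt, Ren1 and Agtr1b were each assigned to their longest transcript in full in the alignment-based tables. For Agtr1b the alignment-free tables gave Agtr1b-202, which has the same coding length of 1077 bases, 13.6% of the level in replicate 1 and 4.55% in replicate 2. Among the genes at 1 TPM or more that have a transcript shorter than 700 bases, such transcripts held from 0% of the alignment-based level, for Ace, to 58.4% and 57.1%, for Agtr2.

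The genes around these 9 were read from a list of 46 genes grouped by role. In the mean of both libraries 42 of the 46 reached 1 TPM. The exceptions, named after their values were seen, were the proteases Ctsg and Klk1, the receptor Mrgprd and the potassium channel Kcnj5. Of 44 genes with enough counts, 2 were called between the libraries, beside 3.99% of all genes. By adjusted p alone 25 of the 44 passed, 21 higher in replicate 1 and 4 higher in replicate 2, beside 17.6% and 15.9% of all genes. The median log2 ratio of the 44 was 0.11.

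The other enzymes that make or convert angiotensins comprised 10 genes, 8 of them at 1 TPM or more. Neprilysin (Mme), a peptidase that makes angiotensin (1-7), measured 11.6 TPM in replicate 1 and 9.73 TPM in replicate 2, and cathepsin D (Ctsd), a lysosomal protease able to cut angiotensinogen, 215.7 and 192.6 TPM. Mast cell chymase (Cma1), listed by role among these enzymes, measured 2.47 TPM in replicate 1 and 6.79 TPM in replicate 2. It was called higher in replicate 2, with a log2 ratio of -1.36. All 4 aminopeptidases and peptidases that break down angiotensins were at 1 TPM or more. The highest of them were Lnpep, at 47.1 and 45.6 TPM, and Dpp3, at 39.6 and 38.8 TPM.

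Among the 6 genes of receptor partners, 5 were at 1 TPM or more. The beta-arrestin Arrb1, which ends receptor signalling, measured 25.7 TPM in replicate 1 and 26.6 TPM in replicate 2, and Atp6ap1, another accessory subunit of the proton pump, 47.2 and 47.8 TPM. All 9 genes of Gq coupling were at 1 TPM or more, and none was called. The alpha subunits Gnaq and Gna11 measured 27.4 and 25.8 TPM in replicate 1 and 30.6 and 26.4 TPM in replicate 2. The inositol trisphosphate receptor Itpr1, the calcium channel of internal stores, measured 39.4 and 37.4 TPM.

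Of the 8 genes for calcium signalling to aldosterone synthesis, 7 were at 1 TPM or more and 0 were called, while 5 passed by adjusted p alone, higher in replicate 1. Kcnk3, a background potassium channel of glomerulosa cells, measured 296.2 TPM in replicate 1 and 254.9 TPM in replicate 2. The voltage-gated calcium channel Cacna1h measured 22.8 and 22.7 TPM, and Cacna1d 10.9 and 11.6 TPM.

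The 6 genes of aldosterone output were all at 1 TPM or more. Aldosterone synthase (Cyp11b2) measured 144.3 TPM in replicate 1 and 70.4 TPM in replicate 2 and was called higher in replicate 1, with a log2 ratio of 1.13. Its reads can be shared with the similar Cyp11b1, so its level is uncertain. Nr4a1, a transcription factor that angiotensin II induces in adrenal cells, measured 46.7 and 28.0 TPM, higher in replicate 1 by 0.82 on the log2 scale, under 2-fold. Cyp11b2, Nr4a1 and the channel Kcnk3 also belong to the zona glomerulosa markers above, and Star also belongs to the cortex markers. These genes are not separate evidence from those lists. Star, which carries cholesterol into mitochondria, measured 863.7 and 790.4 TPM. The mineralocorticoid receptor Nr3c2 measured 2.13 TPM in replicate 1 and 3.71 TPM in replicate 2, and its target Sgk1 47.1 and 42.5 TPM. Nr3c2 had 356 and 364 counts, a log2 ratio of -0.09 on scaled counts. Its TPM therefore differed more between the libraries than its counts did.

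**Figure D5:**
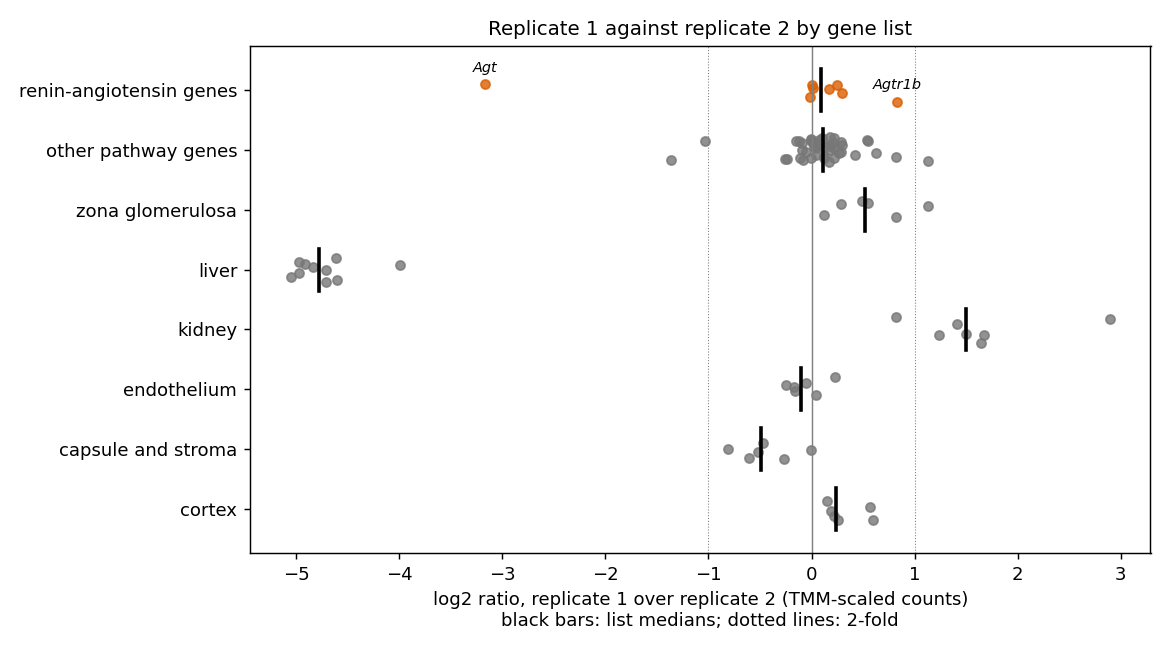
Log2 ratio of TMM-scaled counts, replicate 1 over replicate 2, for the 8 renin-angiotensin genes with enough counts, the other genes of the pathway list and 6 of the marker lists. Each point is a gene, each black bar a list's median, and dotted lines mark 2-fold. Agt lies at -3.17 between the other renin-angiotensin genes and the liver markers. Agtr1b lies at 0.83, within the ranges of the zona glomerulosa markers, the kidney markers and the other pathway genes.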

How the data were processed

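Tables were made per library against mm10 and GENCODE M21, as the deposited descriptions state, with the programs, versions and use of strand not given in the sources used here. Per the file headers, the authors deposited expected counts and TPM per gene and per transcript, derived from an alignment to the transcriptome. A second set, from the reads without an alignment, holds estimated counts and TPM per transcript, which were summed here per gene. TPM scales counts by effective length, so a short transcript reaches a high TPM from few counts. Expected counts were rounded. The 26248 rows with a number for an identifier, holding 3 and 2 counts, and the spike-ins (1.06% of counts in each library) were left out of gene totals.

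TMM sizes came from edgeR 4.0.16 (R 4.3.3) after filterByExpr kept 18160 genes, with DESeq2 1.42.0 size factors as an alternative. Log2 ratios used a prior count of 0.5. The exact binomial test was tried on simulated counts with Poisson error only, which is what the test assumes. The simulation therefore checks the code and not how the test behaves with spread between animals. Depth and intervals limit precision as given beside the values. The genes, the pathway list of 46 and the 9 marker lists were chosen with earlier results of these data known. Named were all 9 genes, pathway genes at 1 TPM or more or called, and the highest 2 of a marker list and Alb. No protein sequence was used. A planned ratio of 1 gene pair is not reported here.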

Additional observations from a re-analysis of the deposited data

How the results depend on the processing

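The call of Agt alone was kept under DESeq2 size factors, total counts, spike-in counts, no filter on low counts and alignment-free counts, as was the call of Cma1 and Cyp11b2. By adjusted p alone, 4 renin-angiotensin and 25 pathway genes passed. Calls over all genes numbered 725, against 1197 without the filter and 6084 by adjusted p alone. Of 40 alternative log2 ratios of single genes between the libraries, 36 kept their direction. The exceptions were Agtr2, at -0.022 for both total counts and spike-in counts, and Atp6ap2, at -0.013 and -0.012, none of them called. Ace had an adjusted p of 0.0394 on alignment-free counts, against 0.0988, and was under 2-fold in both. The log2 ratio of Agtr1a over Agtr2 turned from -0.39 to 1.42 in alignment-free TPM, and to 0.63 and 0.55 with the longest transcripts alone in alignment-based and alignment-free TPM, chosen after seeing the data; it was -0.058 in counts. Agtr1a over Agtr1b moved to 4.37 in alignment-free TPM. The cause of these shifts was not tested. Genes at 1 TPM or more numbered 7, as without replicate 1 or 2, and 8 with alignment-free TPM or TPM over protein-coding genes, where Ren1 also passed. TPM over protein-coding genes raises all genes of a library by 1 factor while the level of 1 TPM stays fixed. At other levels, 8 reached 0.5 TPM and 5 reached 5 TPM. Leaving out replicate 1 or 2 gave -0.48 and -0.30 for Agtr1a over Agtr2, 4.14 and 3.53 for Agtr1a over Agtr1b, 5.72 and 2.57 for Agt over Ren1, and -7.36 and -5.91 for Agt over the liver list. Under other tables or scalings, 16 of 18 levels and 10 of 16 transcript shares moved beyond 1 SD. The shifts of levels include changes of scale that are common to all genes. Depth limits Mas1 and Ren1. No paired analysis was possible because the labels give 1 group, with no second group to share its replicate numbers.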
